A study of Rattus norvegicus with 6 samples.

Results

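Transcripts of 10 genes that mark vascular smooth muscle cells and pericytes were followed in the rat heart after repeated doxorubicin, an anthracycline cancer drug that injures the heart. The genes were chosen by symbol: the contractile genes Acta2, Myh11, Tagln, Cnn1, Smtn and Mylk, and Rgs5, Pdgfrb, Cspg4 and Notch3, which are used to mark pericytes and other mural cells. All 10 were found in the count table among 17487 symbols, each on a single row, and all 10 were among the 9205 symbols that passed the low-count filter. The animals were 6 adult male rats of the outbred Wistar strain, with 1 heart library per rat. In the doxorubicin group 3 rats had weekly tail vein injections of doxorubicin hydrochloride at 3.75 mg/kg over 4 weeks. In the control group 3 rats had the vehicle, 0.9% sodium chloride, on the same schedule. The labels name no transgene, deletion or other treatment, and do not state which part of the heart was taken or how long after the last injection.

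Smooth muscle cells wrap the coronary arteries and arterioles and set vessel tone by contracting, and pericytes sit on the capillaries beside the endothelium. Contraction starts when myosin light chain kinase phosphorylates the regulatory light chain of smooth muscle myosin, and the contractile genes are switched on by serum response factor (SRF) with its coactivator myocardin. Platelet-derived growth factor from the endothelium recruits mural cells through the receptor encoded by Pdgfrb, and Notch3 helps to keep their arterial identity. Several of the genes are not exclusive to these cells: Acta2 is also made by myofibroblasts, Pdgfrb by fibroblasts and Cspg4 by some glia. In whole tissue, fewer cells of a type and less RNA per cell cannot be told apart.

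Library totals ranged from 2219685 to 3508282 counts, and 3 counts, the smallest number treated as detectable, corresponded to 0.849 to 1.33 CPM, which is the count scaled to a common library total and the unit of all levels below. On the first principal component of the tested genes control library 1 lay at -43.3 and the others between -4.83 and 26.6. That library also held the highest summed level of 10 erythroid genes, 7413 CPM against 699 to 2727 CPM in the other 5. The 13 cardiomyocyte markers in the table summed to 120248 to 142732 CPM per library, and 0 of them were at 0. Myl6, Tpm1 and Flna, which contractile tissue uses widely, were listed at 0 in all 6 libraries, so the table can miss reads of a gene. Levels of different genes were therefore not tested against each other, and sums and their parts refer to the counted reads only.

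Because the contractile genes share a regulator, the bases around the transcription starts of 3 of them are shown, from 250 bases before to 50 bases after the start (RefSeq, build GRCr8). Acta2 and Cnn1 had nearly the same pattern over the 6 hearts, and Smtn resembled it less closely. In Acta2 (minus strand, chr1:241172454-241172753) the capitals mark, in order, 2 CArG-like elements and the motif TATATAA. In Smtn (minus strand, chr14:82644465-82644764) they mark the 2 matches to GGCGGG, a GC box core, and in Cnn1 (plus strand, chr8:28908187-28908486) there was no match to a searched motif.
Acta2: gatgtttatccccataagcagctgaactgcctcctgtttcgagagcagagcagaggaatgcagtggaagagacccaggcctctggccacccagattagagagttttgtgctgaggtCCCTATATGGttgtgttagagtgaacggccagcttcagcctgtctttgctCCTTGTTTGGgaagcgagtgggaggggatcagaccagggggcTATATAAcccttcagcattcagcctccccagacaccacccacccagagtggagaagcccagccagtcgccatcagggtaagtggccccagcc
Cnn1: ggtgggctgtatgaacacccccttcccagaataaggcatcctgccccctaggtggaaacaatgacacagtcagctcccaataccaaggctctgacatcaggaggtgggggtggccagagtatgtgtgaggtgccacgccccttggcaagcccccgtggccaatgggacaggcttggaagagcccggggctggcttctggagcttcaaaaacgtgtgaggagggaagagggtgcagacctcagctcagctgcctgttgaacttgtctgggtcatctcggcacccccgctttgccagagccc
Smtn: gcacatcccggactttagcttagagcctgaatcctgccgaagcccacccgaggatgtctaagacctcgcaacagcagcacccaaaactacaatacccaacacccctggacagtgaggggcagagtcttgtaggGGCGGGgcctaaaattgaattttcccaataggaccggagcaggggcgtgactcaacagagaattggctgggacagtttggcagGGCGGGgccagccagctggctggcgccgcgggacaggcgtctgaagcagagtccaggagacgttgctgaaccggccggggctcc

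The CArG box is the sequence SRF binds, and the CArG-like form allows 1 G or C within its A/T core. Acta2 held CCCTATATGG from base -134 to -125 and CCTTGTTTGG from base -84 to -75, counted from the start, and TATATAA from base -42 to -36. No match overlapped another. Starts of 7 of the 10 genes were in the RefSeq table. Myh11, Tagln and Pdgfrb were absent, so their windows were not searched. Of the 7 windows 0 held a strict CArG box, which 1.64% of all 33469 windows of this length held. The CArG-like form was in 1 of the 7, Acta2, and in 9.42% of all windows. TATATAA on either strand was in 1 of the 7, again Acta2, and in 3.93% of all, and GGCGGG on either strand was in 4 of the 7, Smtn, Rgs5, Cspg4 and Notch3, and in 32.0% of all. The last searched motif, GTGGGAA on either strand, was in 1 of the 7, Mylk, and in 6.29% of all. These matches describe the letters in the windows and are not evidence of binding.

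The comparison of doxorubicin with control asked whether mural cell transcripts differed in the treated hearts. None of the 10 genes did so past the test: 0 had an adjusted p under 0.05 in edgeR's quasi-likelihood test, where 0.0543% of all tested symbols were called. At an unadjusted p under 0.05 the count was also 0, against 8.10% of all symbols. DESeq2 called 0 of the 10 and 74 genes over all symbols. As limma voom called 0 genes over all symbols, its 0 of the 10 says nothing particular about these genes. The doxorubicin and control values overlapped for all 10 genes, while they did not overlap for 13.4% of all symbols. The fitted log2 fold change was above 0 for 4 genes and below 0 for 6, with a median of -0.17 against 0.02 over all tested symbols. The estimates ran from -0.76 for Cnn1 to 0.32 for Rgs5. Since a p above the threshold does not show equal levels, the 95% intervals are given: the narrowest, for Notch3, ran from -0.69 to 0.16, and the widest, for Cnn1, from -2.01 to 0.49.

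**Figure D1:**
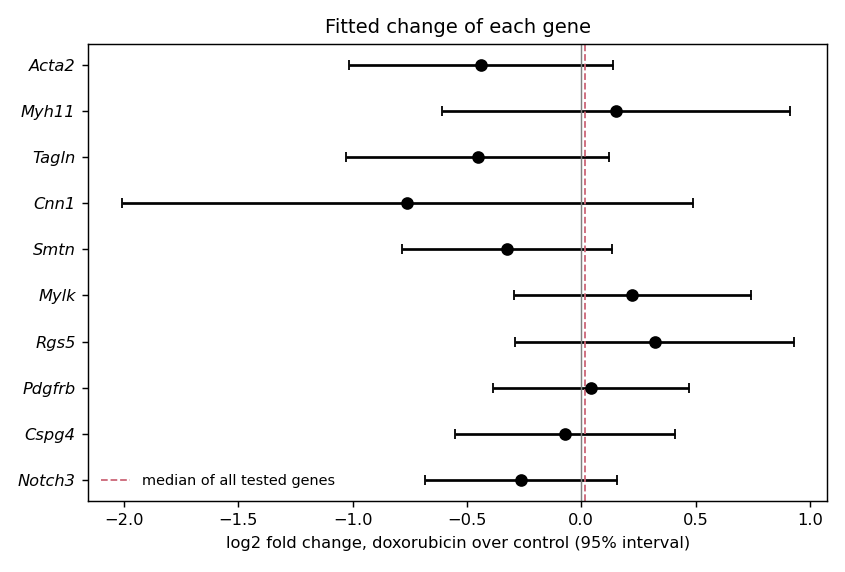
Fitted log2 fold change of each gene, doxorubicin over control, as a point with its 95% interval from the fit across all tested genes (3 hearts per group); the dashed line is the median of all tested genes, 0.02. The intervals of all 10 genes include 0; the widest, for Cnn1, runs from -2.01 to 0.49 and the narrowest, for Notch3, from -0.69 to 0.16.

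Acta2 encodes smooth muscle alpha-actin, the main actin of the contractile filament. Its level was 165, 112 and 164 CPM in control hearts 1, 2 and 3 and 116, 147 and 62.9 CPM in doxorubicin hearts 1, 2 and 3. Only doxorubicin heart 3 lay below the control range, and hearts 1 and 2 of that group lay within it. The group means were 147 ± 30.2 and 109 ± 42.6 CPM (SD, n = 3), with a log2 fold change of -0.44 (SE 0.27, edgeR adjusted p = 0.715). Without doxorubicin heart 3 the estimate was -0.15, and without doxorubicin heart 2 it was -0.71. How reads shared between Acta2 and other near-identical actin genes were counted was not stated.

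Tagln encodes transgelin, an actin-binding protein of smooth muscle also called SM22 alpha. It stood at 92.1, 61.1 and 95.1 CPM in the control hearts and at 60.5, 84.0 and 37.6 CPM in the doxorubicin hearts. The order of the hearts was close to that of Acta2, with doxorubicin heart 3 lowest again. The fitted log2 fold change was -0.45 (SE 0.27, edgeR adjusted p = 0.697), and it was -0.19 without doxorubicin heart 3 and -0.75 without doxorubicin heart 2. Cnn1 encodes calponin 1, an actin-binding brake on smooth muscle contraction, and rested on few reads. Control hearts 1, 2 and 3 had 16, 6 and 29 counts and doxorubicin hearts 1, 2 and 3 had 11, 19 and 3 counts, the last at the detection floor. Its log2 fold change was -0.76 (SE 0.58, edgeR adjusted p = 0.773), and it was -1.39 without doxorubicin heart 2, -0.29 without doxorubicin heart 3 and -0.37 without control heart 3.

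Smtn encodes smoothelin, an actin-associated protein of fully contractile smooth muscle. Levels were 405, 260 and 300 CPM in control hearts and 233, 317 and 221 CPM in doxorubicin hearts. Control heart 1 was the highest of the 6 and doxorubicin hearts 1 and 3 were the lowest, with doxorubicin heart 2 inside the control range. The means were 322 ± 75.2 and 257 ± 52.3 CPM (SD, n = 3), and the log2 fold change of -0.32 (SE 0.21, edgeR adjusted p = 0.730) became -0.12 without control heart 1. The summed level of Acta2, Tagln, Cnn1 and Smtn was 669, 436 and 567 CPM in control and 413, 554 and 323 CPM in doxorubicin hearts. Smtn was the largest part of this sum in every heart, and Cnn1 added only 0.881 to 8.21 CPM.

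**Figure D2:**
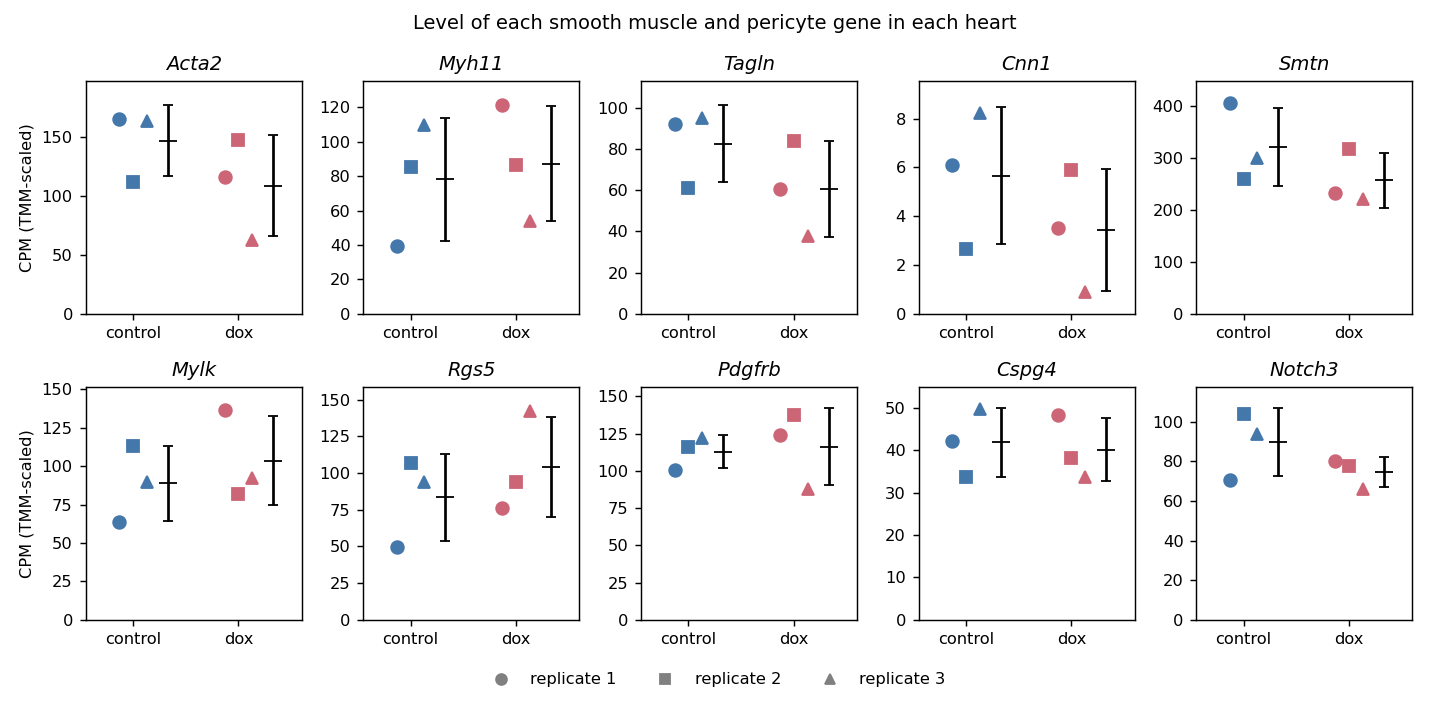
Level of each gene in each heart, in CPM on a linear axis from 0, with replicates 1, 2 and 3 as circle, square and triangle and the mean with its SD beside them (n = 3 per group). Acta2, Tagln, Cnn1 and Smtn share their lowest heart, doxorubicin 3, and Myh11, Mylk and Rgs5 share theirs, control 1.

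The remaining contractile genes ordered the hearts differently. Myh11, the smooth muscle myosin heavy chain and the most specific of these markers, measured 39.2, 85.5 and 110 CPM in control hearts and 121, 86.8 and 54.1 CPM in doxorubicin hearts. Control heart 1 was lowest and doxorubicin heart 1 highest, and the ranges overlapped over most of their length. The log2 fold change was 0.15 (SE 0.35, edgeR adjusted p = 0.936), turning to -0.16 without control heart 1 and to -0.15 without doxorubicin heart 1.

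Mylk encodes myosin light chain kinase, the enzyme that starts contraction. Its values were 63.9, 113 and 89.7 CPM in control and 137, 81.8 and 92.6 CPM in doxorubicin hearts. As for Myh11, control heart 1 was the lowest and doxorubicin heart 1 the highest, and the other 4 hearts lay between 81.8 and 113 CPM. The log2 fold change was 0.22 (SE 0.24, edgeR adjusted p = 0.843), 0.04 without control heart 1 and -0.02 without doxorubicin heart 1. The summed level of Myh11 and Mylk ranged from 103 to 200 CPM in control and from 147 to 258 CPM in doxorubicin hearts.

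Rgs5 encodes a regulator of G protein signalling that is abundant in pericytes and damps vasoconstrictor receptors. It reached 49.9, 107 and 93.7 CPM in control hearts and 76.2, 93.9 and 142 CPM in doxorubicin hearts. Doxorubicin heart 3, which had the least Acta2, Tagln, Cnn1 and Smtn, had the most Rgs5, and control heart 1 had the least. The log2 fold change of 0.32 (SE 0.28, edgeR adjusted p = 0.804) was 0.06 without control heart 1 and 0.04 without doxorubicin heart 3.

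Pdgfrb, the receptor for platelet-derived growth factor B, differed little. Control hearts had 100, 116 and 122 CPM and doxorubicin hearts 124, 137 and 87.6 CPM, so the doxorubicin hearts lay on both sides of the control range. The log2 fold change was 0.04 (SE 0.20, edgeR adjusted p = 0.974), and the 95% interval, as a fold, ran from 0.764 to 1.38. Cspg4 encodes the NG2 proteoglycan on the surface of pericytes. It was 42.3, 33.7 and 49.8 CPM in control and 48.3, 38.3 and 33.8 CPM in doxorubicin hearts, nearly the same range, with a log2 fold change of -0.07 (SE 0.23, edgeR adjusted p = 0.961).

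Notch3 encodes the Notch receptor of arterial mural cells. Its level was 70.8, 104 and 94.0 CPM in control hearts against 80.3, 77.8 and 65.8 CPM in doxorubicin hearts. Control hearts 2 and 3 exceeded all doxorubicin hearts, and control heart 1 lay among them. The log2 fold change was -0.26 (SE 0.20, edgeR adjusted p = 0.768), and without control heart 1 it was -0.40 with an edgeR adjusted p of 0.861.

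Between hearts, the genes did not move as a block. Doxorubicin heart 3 was the lowest heart for 6 of the 10 genes, control heart 1 for 3 and control heart 2 for 1. Relative to each gene's mean over the 6 hearts on the log2 scale, doxorubicin heart 3 was at -0.95 for Acta2, -0.85 for Tagln and -1.55 for Cnn1 but at -0.02 for Mylk and 0.67 for Rgs5. Control heart 1 was at 0.44 for Acta2 and 0.52 for Smtn but at -0.96 for Myh11, -0.54 for Mylk and -0.83 for Rgs5. The sum of all 10 genes, of which Smtn was the largest part in every heart, was 799 CPM in doxorubicin heart 3 and 995 to 1126 CPM in the other 5 hearts. In doxorubicin heart 3 the 15 endothelial markers summed to 1407 CPM, against 1700 to 1985 CPM in the others, and the 14 fibroblast markers to 5718 CPM, against 6330 to 8390 CPM. The 13 cardiomyocyte markers summed to 120248 CPM there, only just below the range of the others, 121479 to 142732 CPM. The 5 relatives of calponin, transgelin and smoothelin in the table summed to 301 CPM there, against 366 to 445 CPM in the others. The 29 Notch signalling genes were lowest there by little, at 1178 CPM against 1183 to 1312 CPM. Some other lists were not low in that heart. The 28 genes of vessel tone control summed to 3436 CPM, against 2582 to 2842 CPM in the others. Another 23 pericyte genes summed to 1478 CPM, against 1186 to 1503 CPM, and the 12 macrophage markers to 360 CPM, against 268 to 529 CPM. The part of any of these lists in the low values of that heart was not tested.

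**Figure D3:**
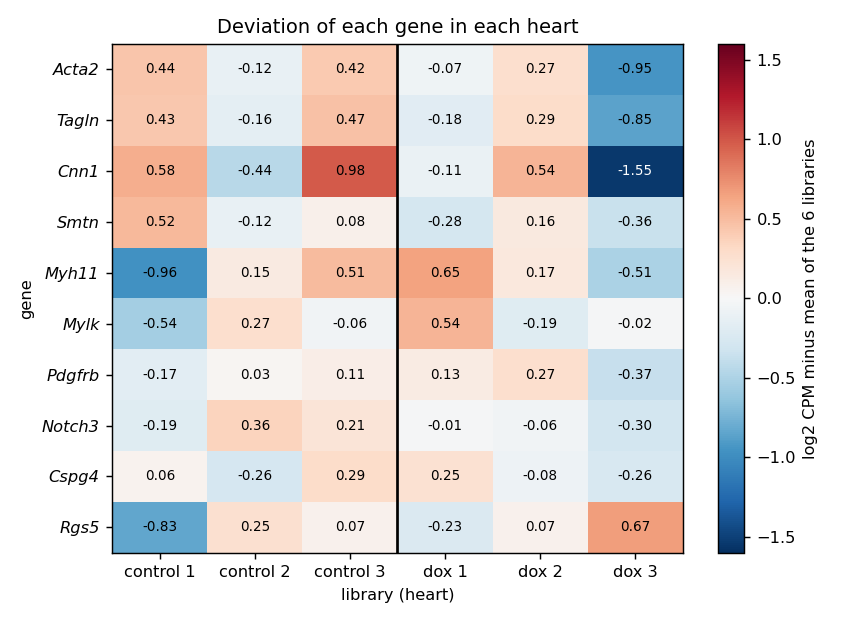
Log2 CPM of each gene (rows) in each heart (columns) minus that gene's mean over the 6 hearts; red is above and blue below the mean, and the vertical line separates the groups. Doxorubicin heart 3 is at -1.55 for Cnn1 and 0.67 for Rgs5, and control heart 1 is at 0.44 for Acta2 and -0.96 for Myh11.

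Correlations of log2 CPM over the 6 hearts were computed for all 45 pairs of the 10 genes, and 33 pairs were positive and 12 negative. Acta2, Tagln and Cnn1 tracked each other most closely. For Acta2 and Tagln Pearson's r was 0.99 (2-sided exact permutation p = 0.00556, adjusted over the 45 pairs 0.0833) and Spearman's rho was 0.89 (p = 0.0333, adjusted 0.375). For Acta2 and Cnn1 r was 0.98 (exact permutation p = 0.00278, adjusted 0.0625) and rho 0.94 (p = 0.0167, adjusted 0.375), and for Tagln and Cnn1 r was 0.99 and rho 0.94 with the same exact permutation p-values. Thus 0 of the 45 pairs passed an adjusted threshold of 0.05, and 6 by r and 4 by rho had an unadjusted exact permutation p under 0.05. Leaving out the 2 hearts farthest from the median of the first gene gave r of 0.995, 0.990 and 0.947 for these 3 pairs, so the relation did not rest on those hearts. After the group means were subtracted r was 0.99, 0.98 and 0.99.

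Smtn went with this trio less tightly. With Acta2 its r was 0.80 (exact permutation p = 0.0458, adjusted 0.354) and rho 0.89 (p = 0.0333, adjusted 0.375). Mylk, although contractile, ran against Smtn, with r of -0.82 (exact permutation p = 0.0472, adjusted 0.354) and rho of -0.83 (p = 0.0583, adjusted 0.375). Rgs5 against Acta2 gave r of -0.73 (exact permutation p = 0.119, adjusted 0.448) and rho of -0.83 (p = 0.0583, adjusted 0.375), but r was 0.08 without control heart 1 and doxorubicin heart 3, so that relation rested on those hearts. For Acta2 and Myh11, the pair most used to mark smooth muscle, r was 0.16 (exact permutation p = 0.758, adjusted 0.866) and rho -0.03 (p = 1.00, adjusted 1.00).

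**Figure D4:**
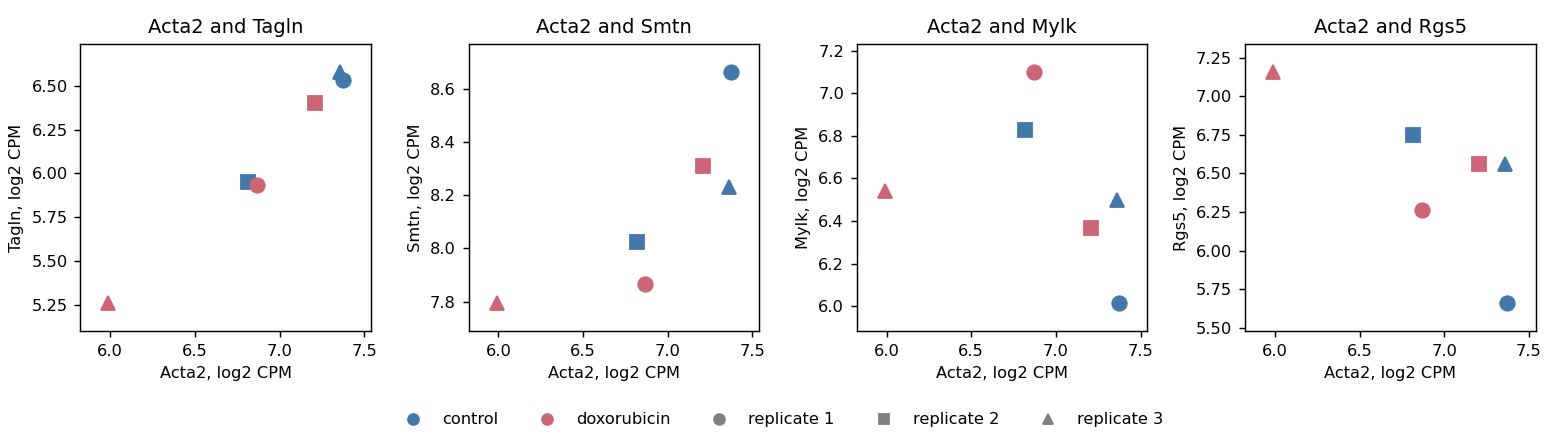
Log2 CPM of Tagln, Smtn, Mylk and Rgs5 (vertical axes) against log2 CPM of Acta2 (horizontal axes), with 1 point per heart, blue for control and red for doxorubicin. Tagln rises with Acta2 along a line (r = 0.99), Smtn does so with more scatter (r = 0.80), and Rgs5 is highest in the heart with the least Acta2.

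The other genes of the contractile apparatus, of tone control and of SRF-linked regulation were taken from fixed lists. All lists were chosen with earlier results of these data known. Their shares set beside those of all symbols are therefore descriptive and not an independent result. Over these 3 lists and the pericyte, growth factor and Notch lists that follow, DESeq2 called Tpm2 and Ednra, among 74 genes over all symbols. There limma voom called 0 genes, as it did over all symbols. Of 19 contractile genes tested, 0 passed the adjusted threshold in edgeR's test, and 4 reached an unadjusted p under 0.05. In doxorubicin 3 of these were higher and 1 was lower, calls made for 4.00% and 4.11% of all symbols. Their median log2 fold change was -0.03. Tpm2, beta-tropomyosin, was 1.90, 1.77 and 4.53 CPM in control and 13.4, 12.4 and 9.40 CPM in doxorubicin hearts, on 4 to 16 counts per control library. Each doxorubicin heart exceeded the highest control heart. The log2 fold change was 2.02 (SE 0.43, edgeR adjusted p = 0.125), and Tpm2 passed the adjusted threshold in DESeq2 and in edgeR without the filter. Without the filter edgeR called 61 genes over all symbols. Synpo2, an actin-bundling protein gene, and Pdlim3, a Z-disc protein gene, had log2 fold changes of 0.79 and 0.63 with doxorubicin values above all control values (edgeR adjusted p = 0.353 and 0.371). Without doxorubicin heart 3 the value of Synpo2 was 0.43. Tpm2, Synpo2 and Pdlim3 are also expressed in striated muscle.

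Among 24 tone control genes 0 passed the adjusted threshold in edgeR and 4 had an unadjusted p under 0.05, 3 higher and 1 lower, or 16.7% of the list against 8.10% of all symbols. Their median log2 fold change was 0.05. Ednra, the endothelin A receptor through which endothelin constricts vessels, was 27.4, 36.3 and 41.9 CPM in control and 75.8, 56.9 and 65.2 CPM in doxorubicin hearts. The groups did not overlap, and the log2 fold change of 0.90 (SE 0.22) had an adjusted p of 0.158 in edgeR and passed the threshold in DESeq2 and in edgeR without the filter. Rgs2, which damps signalling from constrictor receptors as Rgs5 does, was 16.4, 18.6 and 16.7 CPM in control and 31.7, 28.3 and 39.4 CPM in doxorubicin hearts. Its log2 fold change was 0.95 (SE 0.24, edgeR adjusted p = 0.182), and each doxorubicin heart exceeded each control heart. Adra1d, an alpha-1 adrenergic receptor gene, was 47.6, 18.2 and 16.7 CPM in control against 10.6, 12.4 and 6.46 CPM in doxorubicin hearts, with control heart 1 far above the rest. Its log2 fold change of -1.48 (SE 0.41, edgeR adjusted p = 0.249) was -0.82 without control heart 1.

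Of 12 regulators tested, 0 passed the adjusted threshold in edgeR and 3 had an unadjusted p under 0.05, 1 higher and 2 lower, where 8.10% of all symbols had such a p. Their median was -0.07, and 0.08 without control heart 1. Gata6, a transcription factor gene active in smooth muscle and heart muscle, had a log2 fold change of 0.49 and doxorubicin values above all control values. Klf2, a flow-responsive factor of endothelium, was at -0.62 with overlapping groups, and Fhl2, an SRF cofactor, at -0.44 with doxorubicin values below all control values. The edgeR adjusted p-values of these 3 were 0.471, 0.550 and 0.594. Without control heart 1 Klf2 was at -0.23 and Fhl2 at -0.26.

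The pericyte list held 20 tested genes, of which 7 had a log2 fold change above 0 and 13 below, with a median of -0.18. None passed the adjusted threshold in edgeR, and 1 had an unadjusted p under 0.05, Ednra, which is also on the tone list. That is 1 of 20, below the 8.10% of all symbols. Higd1b, a mitochondrial protein gene used as a pericyte marker, had a log2 fold change of -0.82 (SE 0.40, edgeR adjusted p = 0.624) on 14 to 36 counts per library. Gja4, connexin 37 of arterial endothelium and smooth muscle, was at -0.55 (SE 0.30, edgeR adjusted p = 0.677), at -0.97 without doxorubicin heart 1 and at -0.31 without doxorubicin heart 3. The summed level of the 23 pericyte genes in the table was 1186, 1422 and 1503 CPM in control and 1411, 1472 and 1478 CPM in doxorubicin hearts, so the doxorubicin hearts lay within the control range.

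Around Pdgfrb, 14 genes of platelet-derived growth factor signalling had a median log2 fold change of 0.01, with 7 above 0 and 7 below. In edgeR 0 passed the adjusted threshold and 1 had an unadjusted p under 0.05, Pik3r1, a regulatory subunit of phosphoinositide 3-kinase, at 0.81 (SE 0.36). That share, 7.14%, was near the 8.10% of all symbols. Pik3r1 ranged from 11.4 to 32.3 CPM in control and from 28.3 to 58.8 CPM in doxorubicin hearts, and the groups overlapped. The value of Pik3r1 was 0.39 without doxorubicin heart 3 and 0.50 without control heart 1. Around Notch3, 26 genes of Notch signalling had a median of -0.05, 0 past the adjusted threshold in edgeR and 2 at an unadjusted p under 0.05, both lower. The 7.69% of the list at that p was near the 8.10% of all symbols. Nrarp, a Notch target that feeds back on the pathway, was 55.2, 36.3 and 38.8 CPM in control and 28.5, 20.5 and 19.4 CPM in doxorubicin hearts. Mfng, a glycosyltransferase that modifies Notch receptors, was 24.0, 28.3 and 25.5 CPM against 14.7, 16.2 and 14.1 CPM. For both genes all doxorubicin hearts lay below all control hearts, and the log2 fold changes were -0.93 (SE 0.25, edgeR adjusted p = 0.216) and -0.79 (SE 0.24, edgeR adjusted p = 0.345). Nrarp and Mfng are expressed in endothelium as well. Of the 14 endothelial markers tested, 6 were above 0 and 8 below, with a median of -0.12, where 4407 of the 9205 tested symbols were below 0. The lowest was Cldn5, a tight junction gene, at -1.15 (SE 0.27, edgeR adjusted p = 0.158, past the threshold in DESeq2). The highest was Vwf at 0.36 (SE 0.20, edgeR adjusted p = 0.683). The part of the endothelium in the Notch values was not tested.

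**Figure D5:**
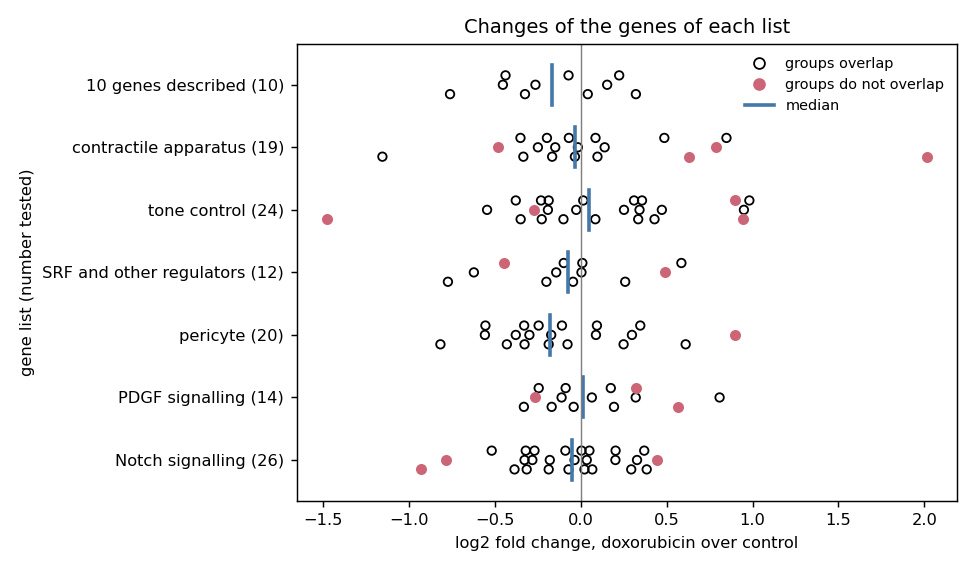
Log2 fold change (doxorubicin over control) of every tested gene of each list, with the number tested in brackets, filled points where the 3 doxorubicin values do not overlap the 3 control values, and a bar at the list's median. The medians lie between -0.18 and 0.05, and the 10 genes described have 0 filled points.

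Relatives of the contractile genes gave mixed values. How reads shared by near-identical actin genes were counted was not stated, so the values of the actin genes, Acta2 included, are uncertain. Actg2, smooth muscle gamma-actin, ordered the hearts much like Cnn1, with 27, 10 and 33 counts in control and 14, 18 and 3 counts in doxorubicin libraries. Its log2 fold change was -1.15 (SE 0.54, edgeR adjusted p = 0.615), and -0.67 without doxorubicin heart 3. Acta1, skeletal alpha-actin, which heart muscle expresses, had a log2 fold change of 1.05 (SE 0.29, edgeR adjusted p = 0.261) with doxorubicin values above all control values, opposite in sign to Acta2. It passed the threshold in DESeq2, and its value was 0.63 without doxorubicin heart 1. Cnn3, acidic calponin, and Tagln2, transgelin 2, both found in many cell types, were at -0.40 and -0.19 with overlapping groups (edgeR adjusted p = 0.670 and 0.831). Cnn3 was at -0.19 without doxorubicin heart 3, and Tagln2 at -0.08 without control heart 1 and -0.10 without doxorubicin heart 3. Smtnl2, smoothelin-like 2, was at 0.42 (SE 0.37, edgeR adjusted p = 0.810) with overlapping groups, and at 0.25 without control heart 3.

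Markers of other cells gave the following background. Fibroblast markers had a median log2 fold change of 0.01 (13 genes tested), endothelial markers -0.12 (14), cardiomyocyte markers -0.05 (13), macrophage markers 0.39 (11) and erythroid markers -1.07 (7). The erythroid median was -0.25 without control heart 1 and -0.66 without doxorubicin heart 1, and the macrophage median was 0.11 without doxorubicin heart 2. Ryr2, a cardiomyocyte calcium channel gene, was the only listed gene past the adjusted threshold in edgeR, with a log2 fold change of -1.62 (SE 0.25, adjusted p = 0.0440), and it passed in 8 of the 16 alternatives. The cardiomyocyte markers went both ways, with 5 above 0 and 8 below, from -1.62 for Ryr2 to 2.18. Among them Myh7 was at 1.94 (SE 0.36, edgeR adjusted p = 0.0944), with doxorubicin values above all control values, and Myh6 at -0.73 with overlapping groups. Robo4, Marco, Alas2 and Hbe1 of the endothelial, macrophage and erythroid lists were listed at 0 in all libraries.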

How the data were processed

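The authors deposited raw read counts per gene symbol for 6 polyadenylated RNA libraries, not normalized. Per the submitters' processing notes FastQC, Trimmomatic, STAR and HTSeq were used with the build mRatBN7.2; the counting mode, use of strand and annotation were not given in the sources used here. The table held 18473 rows, and rows of a symbol were summed. Genes were tested with edgeR 4.0.16 (R 4.3.3), using a quasi-likelihood F test with TMM scaling, robust dispersion and filterByExpr (minimum count 10, minimum total 15), on an intercept and treatment. Benjamini-Hochberg adjustment ran over all 9205 tested symbols, with a threshold of 0.05. The standard error was the absolute log2 fold change divided by the square root of F, and 95% intervals used the test's degrees of freedom. CPM values were TMM-scaled, log2 CPM had a prior count of 2, and correlations used exact permutation.

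The total count per library was 2219685 to 3508282, which limits precision for low genes such as Cnn1, and the floor covers counting error only. Libraries of a group differed by more than sampling noise, so each counted as 1 replicate. The procedure was tested on simulated data. DESeq2 1.42.0, limma 3.58.1 voom, 3 scalings, 2 filters, non-robust dispersion, the replicate number as a block, the highest row of each symbol, and fits without each library were alternatives. All genes of the list were named, and from each other list at most the 3 smallest p-values and any gene past the threshold; genes listed at 0 were named after their values were seen. Members and lists were chosen with earlier results of these data known. Of the 10 genes, 7 had a RefSeq promoter window. The deposited table gives no coordinates. The result of 1 marker list is not reported here.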

Additional observations from a re-analysis of the deposited data

How the results depend on the processing

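Every one of the 16 alternatives was planned and computed, and causes of differences between them were not tested. In every one, 0 of the 10 genes passed the adjusted threshold, and at an unadjusted p under 0.05 the count ranged from 0 to 2. Against 5 genes past the threshold over all symbols, library size only gave 0, no filter 61, non-robust dispersion 1, DESeq2 74 and limma voom 0, and the fits without single libraries gave from 0 to 35.

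The replicate number as a block gave 13 genes over all symbols and called 0 of the 10. Same-numbered libraries are different rats, and their deviations from the group means did not go together (mean correlation -0.073 over 3 pairs, from -0.19 to 0.021).

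Acta2, Tagln, Cnn1, Smtn, Notch3 and Rgs5 kept their sign in all 16 alternatives, and 4 genes did not. Myh11 became -0.16 without control replicate 1 and -0.15 without doxorubicin replicate 1, and Mylk -0.021 without doxorubicin replicate 1. Pdgfrb became -0.0309 without control replicate 1, -0.00320 without doxorubicin replicate 1 and -0.084 without doxorubicin replicate 2. Cspg4 became 0.013 with library size only (there the all-gene median was 0.10 in place of 0.02), 0.076 without control replicate 3 and 0.049 without doxorubicin replicate 3. The estimates without single libraries reached 0.49 for Myh11, 0.44 for Mylk, 0.22 for Pdgfrb and -0.22 for Cspg4 at the other end. Cnn1 rested on at most 29 counts in a library and had the widest 95% interval of the 10 genes.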
